A study of Mus musculus with 18 samples.

Results

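Klf1 and Gata1 are the genes of the erythroid transcription factors KLF1 and GATA1, which were followed here in mouse hearts by 4 spots of a spotted cDNA array with 28704 spots. Klf1 was carried by 2 spots and Gata1 by 2, of 10225 gene symbols on the array. They were taken by their symbols in the platform annotation, and both genes, with the red-cell genes Alas2 (2 spots) and Slc4a1 (3 spots) as a reference, were chosen by the log2 channel ratios of these same arrays. Their ratios are therefore given as a description, with standard errors and no p-value. On each of 18 arrays, heart cDNA of male mice labelled with Cy5 was hybridised together with heart cDNA of female mice labelled with Cy3. Both channels of an array had the same condition and duration. The 9 groups of 2 arrays were controls, chronic constant hypoxia (CCH) and chronic intermittent hypoxia (CIH), each at 1, 2 and 4 weeks, so that each condition had 6 arrays. No transgene or other agent was named in the labels. Strain, age, oxygen level and the number of animals behind a group's arrays are not given in the sources used here, so the errors measure only the spread between arrays, which may be technical.

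GATA1 binds GATA motifs in DNA and is required for red-cell precursors, megakaryocytes, mast cells and eosinophils to mature. KLF1 binds CACCC motifs and, together with GATA1, switches on the genes of the red cell, among them the globins, the heme enzymes and the membrane skeleton. Both proteins work in nucleated precursors in the marrow, the spleen and the fetal liver. Mature red cells of the circulating blood have no nucleus and keep only leftover mRNA, whereas a whole heart also holds blood in its chambers and vessels. Alas2 encodes the erythroid form of the first enzyme of heme synthesis, and Slc4a1 encodes band 3, the anion exchanger of the red-cell membrane.

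To show where the motifs of the 2 factors lie in the factors' own genes and in a reference gene, the 250 bases before the annotated start are printed from RefSeq (GRCm38.p6), 5′ to 3′ on the strand of the gene. Capitals mark matches, on either strand, to the letters AGATAA and their variant with T as first letter, TGATAA, both taken as GATA motifs. Capitals also mark matches to CCNCNCCC, taken as the CACCC motif. The windows are chr8:84901732-84901981 on the plus strand for Klf1, chrX:7967911-7968160 on the minus strand for Gata1 and chrX:150547167-150547416 on the plus strand for Alas2.
Klf1: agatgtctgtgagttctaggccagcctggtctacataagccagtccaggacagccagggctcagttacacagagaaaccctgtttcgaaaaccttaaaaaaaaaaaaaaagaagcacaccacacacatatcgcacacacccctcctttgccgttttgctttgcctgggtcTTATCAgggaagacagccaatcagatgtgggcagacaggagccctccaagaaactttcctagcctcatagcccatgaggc
Gata1: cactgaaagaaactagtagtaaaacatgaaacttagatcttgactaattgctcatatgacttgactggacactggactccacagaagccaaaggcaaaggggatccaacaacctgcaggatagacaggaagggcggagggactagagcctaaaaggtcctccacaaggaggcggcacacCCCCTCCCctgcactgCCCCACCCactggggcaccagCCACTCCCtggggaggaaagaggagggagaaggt
Alas2: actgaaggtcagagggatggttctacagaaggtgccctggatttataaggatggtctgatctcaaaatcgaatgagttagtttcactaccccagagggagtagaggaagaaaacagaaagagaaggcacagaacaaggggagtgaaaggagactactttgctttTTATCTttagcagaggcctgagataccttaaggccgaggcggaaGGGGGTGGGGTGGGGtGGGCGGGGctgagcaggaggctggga

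The Klf1 window held 1 GATA match, TGATAA on the opposite strand, from -80 to -75 relative to the start, and 0 matches to CCNCNCCC. It does hold the shorter letters cacccc, which do not fill that pattern. The Gata1 window held 3 CACCC matches, from -71 to -64, from -55 to -48 and from -34 to -27, and 0 GATA matches. The Alas2 window held both kinds: 1 GATA match, AGATAA on the opposite strand from -86 to -81, and 4 CACCC matches, of which the first 3 overlap one another. Across 32851 windows of this length for 27025 genes, 16.6% held a GATA match, 45.9% a CACCC match and 4.52% both. The CACCC matches counted are those to CCNCNCCC, which need not spell CACCC. CCCCTCCC and CCACTCCC in Gata1 and GGGCGGGG in Alas2 do not spell it on either strand. A match describes letters and not a bound site, and the arrays measured no binding. Slc4a1 is named only.

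Values are log2 ratios of the male over the female channel. Each array was centred on its median, so 0 is the ratio of the middle spot of that array, and 1 stands for a doubling. The direction of the ratio is not stated in the labels and was taken from Eif2s3y, a gene of the Y chromosome. One of its spots was above 0 on all 17 arrays on which it had a value. The gene mean was between 1.00 and 2.28 on 17 arrays and -0.03 on CIH 4 weeks replicate 1, where that spot had no value and the other read -0.03. The other spot was lower still on control 4 weeks replicate 2, at -0.15, where the first read 2.63. CIH 4 weeks replicate 1 correlated with its replicate at 0.09 over all spots. Over all spots, pairs of arrays correlated between -0.53 and 0.74, with 12 of 153 pairs below -0.3, so the direction of single arrays is not fully settled. The array titled CIH 1 week replicate 1 names 2 weeks of CCH in both of its source labels. It was kept in the group of its title. Control 2 weeks replicate 1 has the code 1A in its title, a digit that does not match its 2 weeks. That array was kept in the group given by the words of its title. Between 12650 and 24512 spots per array had a value. A ratio sets male against female hearts of 1 condition, so a difference between conditions can come from either sex, and it cannot separate fewer cells of a type from less RNA per cell.

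The spots of the 2 transcription factors were measured less often than those of the red-cell genes. Klf1 spot 12349 had a value on 10 arrays and spot 15651 on 16. Gata1 spot 14264 had a value on 4 arrays and spot 23345 on 11. The spots of Alas2 had values on 18 and 18 arrays and those of Slc4a1 on 17, 18 and 17. Among 18511 spots with 1 symbol the median was 16 arrays, and 11.8% were measured on no more arrays than Gata1 spot 14264, 27.6% for Klf1 spot 12349, 30.4% for Gata1 spot 23345 and 50.5% for Klf1 spot 15651. Averaged over its spots, Klf1 had a value on 16 arrays, missing on CIH 2 weeks replicate 2 and control 4 weeks replicate 2, and Gata1 had one on 12. How the authors chose which spots to leave blank is not given in the sources used here, and a blank is not a level of 0.

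Klf1 had small ratios on most arrays. In controls the gene mean was -0.01 and -0.41 at 1 week, -0.22 and -0.39 at 2 weeks and 0.22 on the single array at 4 weeks. Under CCH it was 0.11 and 0.56 at 1 week, -1.41 and -0.41 at 2 weeks and 0.30 and 0.07 at 4 weeks. Under CIH it was 0.17 and -0.03 at 1 week, 0.03 on the single array at 2 weeks and -0.60 and -0.03 at 4 weeks. The 3 conditions overlapped: the highest and the lowest Klf1 ratio were both on CCH arrays, and the CIH values lay inside the CCH range. The ratio was above 0 on 7 arrays and below 0 on 9. The condition means were -0.16 ± 0.27 in controls (SD, n = 5), -0.13 ± 0.70 under CCH (SD, n = 6) and -0.09 ± 0.30 under CIH (SD, n = 5). The differences were smaller than these SDs. CCH minus control, averaged over the durations, was -0.03 ± 0.20 (SE), with a 95% interval from -0.46 to 0.40. CIH minus control was 0.03 ± 0.21, from -0.43 to 0.49, and CCH minus CIH was -0.06 ± 0.20. Both hypoxia differences use the same control arrays. The intervals leave room for changes of the male-to-female ratio of up to these bounds in either direction. They do not allow for which of the 2 Klf1 spots was blank on an array.

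By duration, the Klf1 difference from control under CCH was 0.54 ± 0.32 (SE) at 1 week, -0.60 ± 0.32 at 2 weeks and -0.03 ± 0.39 at 4 weeks. The sign turned between 1 and 2 weeks, where the 95% intervals were wide, from -0.15 to 1.24 and from -1.30 to 0.09. The value at 2 weeks drew on CCH 2 weeks replicate 1, the lowest Klf1 array of all; without it, CCH minus control over the durations was 0.13. Under CIH the differences were 0.28 ± 0.32 at 1 week, 0.34 ± 0.39 at 2 weeks and -0.53 ± 0.39 at 4 weeks. The last rests on a control group of 1 array and on CIH 4 weeks replicate 1, where Eif2s3y was read by its lower spot alone. It also sets a control value averaged over both Klf1 spots against CIH arrays read by spot 15651 alone. On spot 15651 that control array read -0.04, and the CIH arrays read -0.60 and -0.03. Without CIH 4 weeks replicate 1 the CIH difference over the durations was 0.12, and with its sign turned 0.23. Without CIH 1 week replicate 1, whose labels conflict, the CIH difference was -0.005.

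**Figure D1:**
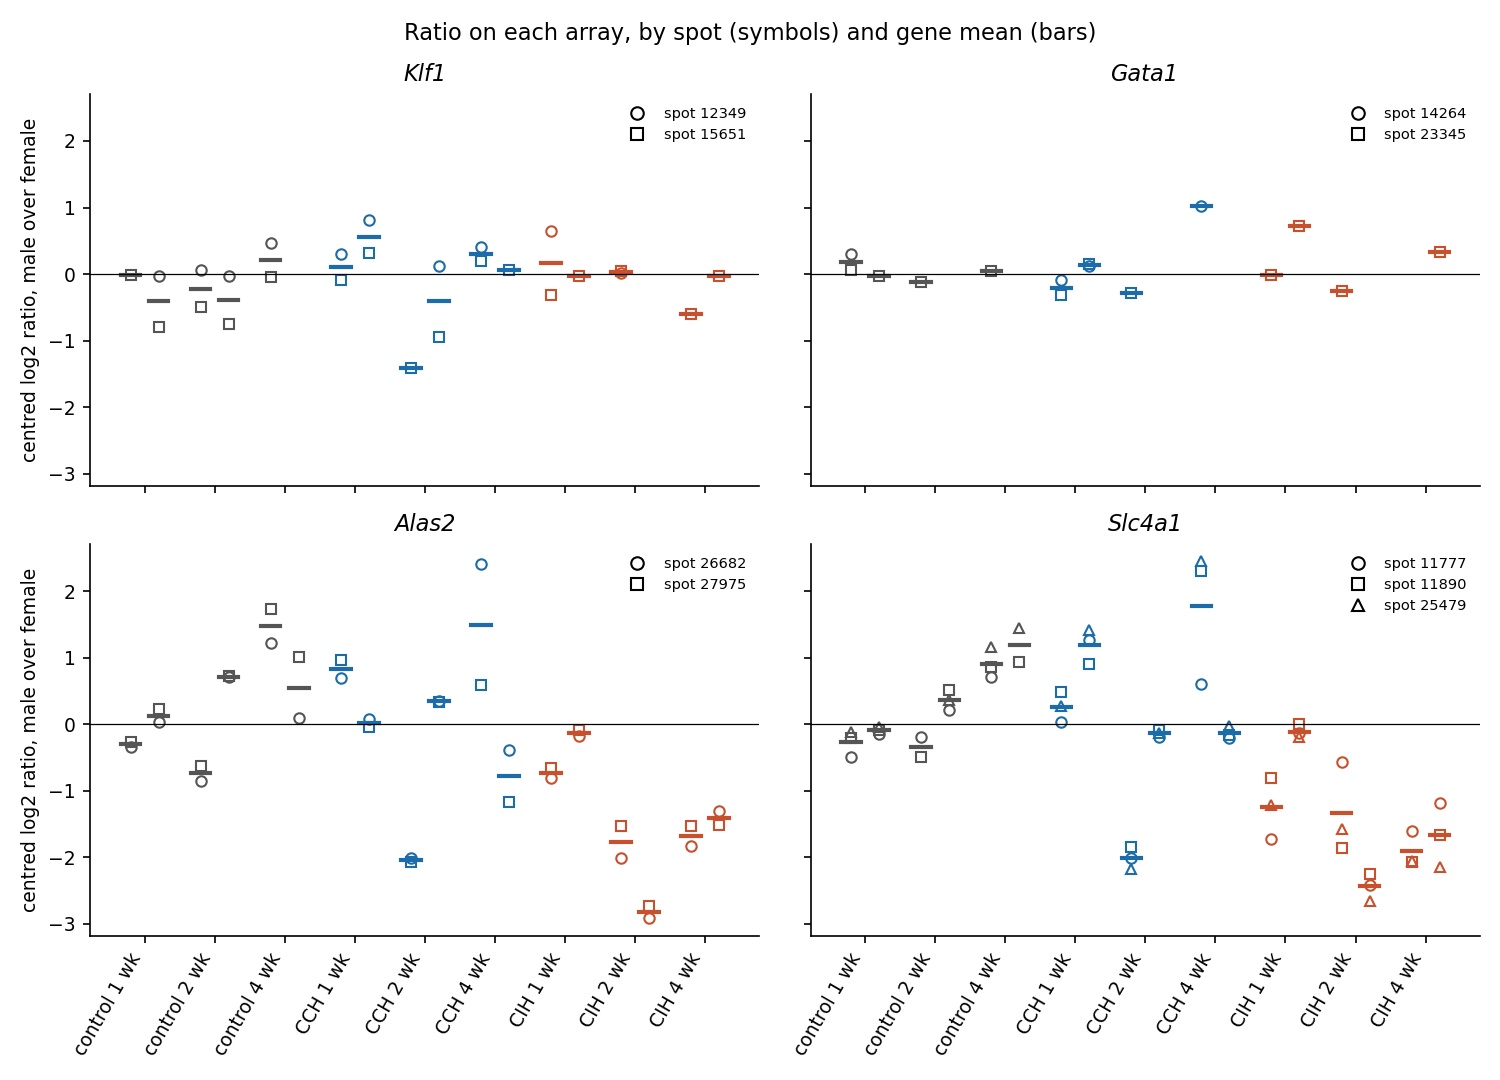
Centred log2 ratio of male over female heart cDNA for Klf1, Gata1, Alas2 and Slc4a1 in the 9 groups. Each symbol is 1 spot on 1 array, and each bar is the gene mean of 1 array. The gene means of Klf1 and Gata1 lie mostly within 0.6 of 0. Those of Alas2 and Slc4a1 reach -2.82 and -2.44 and are below 0 on all 6 CIH arrays.

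The 2 Klf1 spots did not give the same level. On the 10 arrays with both, spot 12349 lay 0.56 ± 0.33 (SD) above spot 15651 and was the higher on 9, and their values correlated at r = 0.66 (rho = 0.60). In controls spot 12349 read -0.02 on 1 week replicate 2, where spot 15651 read -0.80. At 2 weeks the control pairs were 0.06 against -0.50 and -0.03 against -0.75, and at 4 weeks 0.47 against -0.04. Under CCH the pairs were 0.30 against -0.08 and 0.81 against 0.32 at 1 week, 0.12 against -0.94 on 2 weeks replicate 2 and 0.40 against 0.19 on 4 weeks replicate 1. Under CIH they were 0.65 against -0.31 on 1 week replicate 1 and 0.02 against 0.05 on 2 weeks replicate 1. The gap was present in all 3 conditions and was absent on only 1 of these arrays. The 6 arrays with spot 15651 alone include the 2 lowest Klf1 values, -1.41 on CCH 2 weeks replicate 1 and -0.60 on CIH 4 weeks replicate 1, and the other spot could not be read there. With the mean offset of each spot removed first, those arrays read -1.12 and -0.32. Taken alone, spot 12349 differed from control by 0.20 under CCH (3 durations) and by 0.34 under CIH (2 durations), and spot 15651 by 0.05 and 0.21 (3 durations each). Over all arrays, Klf1 averaged -0.10 ± 0.08 (SE) from both spots and 0.28 from spot 12349 alone, so the sign of its overall male-to-female ratio depended on the spot.

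**Figure D2:**
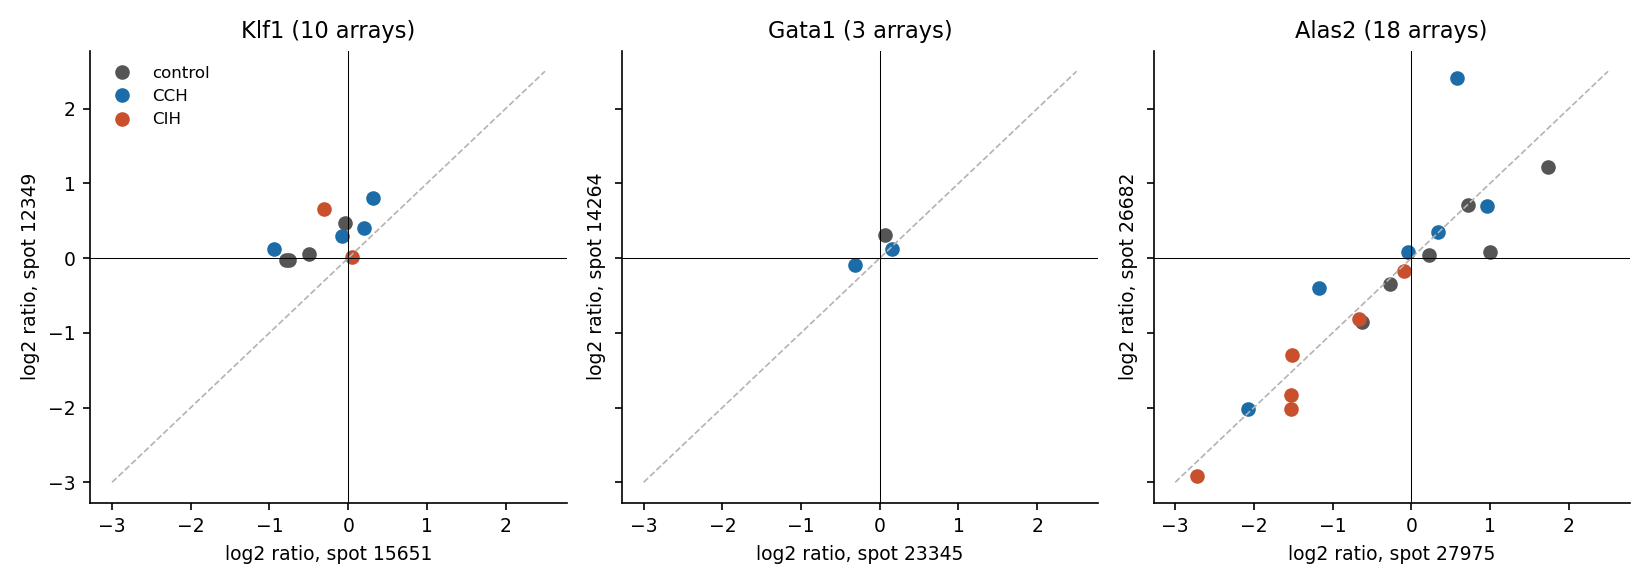
Centred log2 ratios of 2 spots of the same gene plotted against each other, 1 point per array with both values. The Klf1 points lie mostly to 1 side of the line of equality, with a mean gap of 0.56, while the Alas2 points lie on both sides of it with a larger SD of the gap (0.58 against 0.33) over a far wider range, with r = 0.90. Gata1 has only 3 such arrays.

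Gata1 was read from 1 spot on 9 of its 12 arrays. In controls the gene mean was 0.19 and -0.02 at 1 week, -0.12 on the single array at 2 weeks and 0.04 on that at 4 weeks. Under CCH it was -0.20 and 0.14 at 1 week, -0.28 at 2 weeks and 1.03 at 4 weeks. Under CIH it was -0.02 and 0.72 at 1 week, -0.25 at 2 weeks and 0.33 at 4 weeks. In each condition the values lay on both sides of 0, and the control values lay within the range of the CCH values and within that of the CIH values. The condition means were 0.02 ± 0.13 in controls, 0.17 ± 0.60 under CCH and 0.20 ± 0.42 under CIH (SD, n = 4 each). CCH minus control was 0.24 ± 0.22 (SE), with a 95% interval from -0.26 to 0.74, and CIH minus control was 0.14 ± 0.22, from -0.36 to 0.64. CCH minus CIH was 0.09 ± 0.22.

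The CCH difference of Gata1 rested on 1 reading. By duration it was -0.11 at 1 week, -0.16 at 2 weeks and 0.99 at 4 weeks, and the last compares 1 CCH array with 1 control array. On CCH 4 weeks replicate 1 the value of 1.03 came from spot 14264, while spot 23345 had none; the control array at 4 weeks was read by spot 23345, at 0.04. The 2 durations left without that array gave -0.14. Each spot taken alone gave a difference below 0 as well, -0.29 for spot 14264 (1 duration) and -0.13 for spot 23345 (2 durations). On the 3 arrays with both spots, spot 14264 lay 0.15 above spot 23345 on average. The CIH difference of Gata1 was 0.27 at 1 week, -0.13 at 2 weeks and 0.29 at 4 weeks, and 0.72 on CIH 1 week replicate 2 was its highest reading.

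Alas2 and Slc4a1, read by the same arrays, moved over a range several times wider. Alas2 in controls was -0.30 and 0.13 at 1 week, -0.74 and 0.71 at 2 weeks, 1.47 and 0.54 at 4 weeks. Under CCH Alas2 was 0.82 and 0.02, then -2.04 and 0.34, then 1.50 and -0.78. Under CIH Alas2 was -0.74 and -0.14, then -1.77 and -2.82, then -1.68 and -1.41. The CIH arrays were all below 0, and from 2 weeks on all were below the lowest control array. Slc4a1 was -0.35 to 1.20 on control arrays, -2.01 to 1.78 on CCH arrays and -2.44 to -0.11 on CIH arrays. Its CIH arrays were likewise all below 0, and the CCH arrays covered nearly the whole range of both other conditions.

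For these genes CIH minus control was -1.73 ± 0.44 (SE; 95% interval -2.66 to -0.80) for Alas2 and -1.74 ± 0.37 (-2.53 to -0.96) for Slc4a1, whereas Klf1 was at 0.03 and Gata1 at 0.14. Read by single spots, Klf1 was at 0.34 (spot 12349, 2 durations) and 0.21 (spot 15651, 3 durations), both above its gene-mean difference. The 2 spots read at different levels and were not measured on the same arrays. The gene-mean difference of Klf1 therefore depends in part on which spot was blank. Single CIH arrays read as far from 0 as -0.60 for Klf1 and 0.72 for Gata1. The red-cell genes thus lay well below control under CIH, where the mean differences of the factors were small, a contrast for which these genes were chosen. By duration the CIH difference was -0.35, -2.28 and -2.56 for Alas2 and -0.50, -1.90 and -2.84 for Slc4a1 at 1, 2 and 4 weeks. CIH 1 week replicate 1, whose source labels conflict with its title, changed these little. Without it, CIH minus control was -1.63 for Alas2 and -1.56 for Slc4a1. Without control 2 weeks replicate 1, whose title code does not match its duration, the differences were -1.97 and -1.86. With the sign turned of CIH 4 weeks replicate 1, the values were -1.17 and -1.11. The CIH 2 weeks array with the lowest Alas2, replicate 2, was one on which neither transcription factor had a value, so the factors were compared on fewer arrays than the red-cell genes. CCH minus control was -0.33 ± 0.44 for Alas2 and -0.13 ± 0.37 for Slc4a1, and without CCH 2 weeks replicate 1 it was 0.07 and 0.18.

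The spread over arrays showed the same order. The SD over arrays was 0.46 for Klf1 and 0.40 for Gata1, at percentiles 79.9 and 68.1 of the 10272 genes and unnamed spots tested, whose median was 0.33. It was 1.22 for Alas2 and 1.22 for Slc4a1, both at percentile 99.9. Within groups the SDs were 0.36, 0.34, 0.95 and 0.79 for Klf1, Gata1, Alas2 and Slc4a1. For all 4 genes, replicate arrays of a group thus varied by much of the spread seen over all arrays.

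Across arrays, Alas2 and Slc4a1 followed each other closely, with r = 0.92 and rho = 0.91 over 18 arrays and r = 0.88 without the 2 arrays farthest from the median, CIH 2 weeks replicate 2 and CCH 4 weeks replicate 1. Klf1 followed them loosely. Klf1 against Slc4a1 gave r = 0.61 and rho = 0.61 over 16 arrays, with a slope of 0.25 log2 units per log2 unit, and r = 0.42 without the 2 farthest arrays. Klf1 against Alas2 gave r = 0.49 and rho = 0.44 over 16 arrays with a slope of 0.20, and r = 0.17 without them. Gata1 over 12 arrays gave r = 0.46 with Alas2 and 0.51 with Slc4a1, which became 0.01 and 0.03. The arrays left out for Klf1 and Gata1 against the red-cell genes were CCH 2 weeks replicate 1, where both red-cell genes were near -2 and Klf1 and Gata1 had their lowest values, and CCH 4 weeks replicate 1, where Gata1 had its highest value and Alas2 and Slc4a1 were at 1.50 and 1.78. The Gata1 relation and most of that of Klf1 with Alas2 rested on those arrays. Klf1 and Gata1 gave r = 0.40 and rho = 0.38 over 12 arrays, and their signs matched on 6. All points share arrays, labelling and centring, and replicates of 1 group are among them, so these 6 correlations are descriptions with no p-value.

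**Figure D3:**
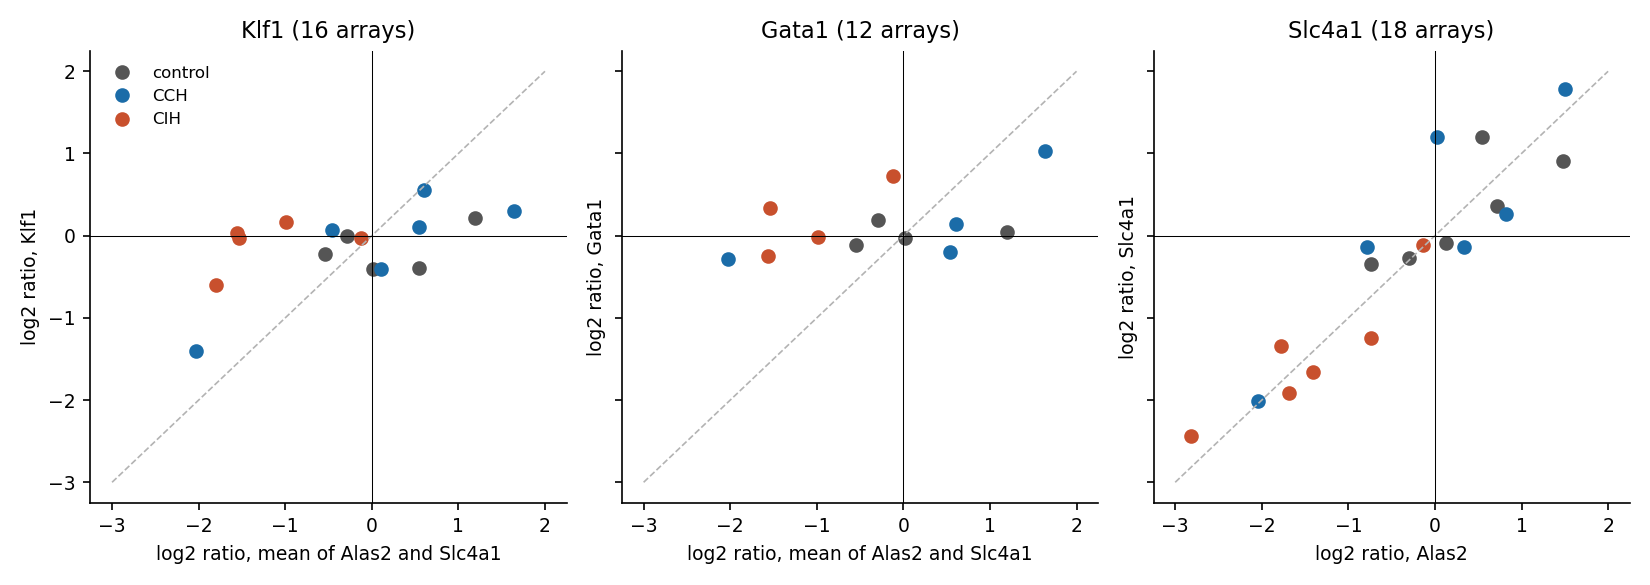
Klf1 and Gata1 log2 ratios (vertical axes) against the mean of the Alas2 and Slc4a1 log2 ratios (horizontal axes), 1 point per array, marked by condition. The last panel sets Slc4a1 against Alas2. Alas2 and Slc4a1 run from below -2 to above 1.4 over arrays on which the transcription factors mostly stay within 0.6 of 0, apart from Klf1 at -1.41 and Gata1 at 1.03 and 0.72.

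Genes with array patterns most like that of Klf1 were ranked by Pearson r among the 5754 named genes with values on all 16 arrays that carry Klf1. The highest were Repin1 (r = 0.86), Slc13a4 (0.86), Tmem104 (0.86), Man2b2 (0.85), Hrg (0.83), Ccdc124 (0.82), Ubash3b (0.81) and Ceacam1 (0.81), and the lowest Cfl1 (-0.84), Prmt5 (-0.82) and Ist1 (-0.81). Slc4a1 stood at rank 278 and Alas2 at rank 662 of this order. Without the 2 arrays with the lowest Klf1, CCH 2 weeks replicate 1 and CIH 4 weeks replicate 1, the 8 highest genes had r from 0.60 to 0.84. The same change took Slc4a1 to 0.35 and Alas2 to 0.10. Gata1 shared 16 arrays with 0 genes, so none is named for it.

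The other regulators of red-cell formation gave no called difference between hypoxia and control. Of 41 listed genes, 35 had a spot and 27 were tested. With limma and Benjamini-Hochberg adjustment over all 10272 units (genes or unnamed spots), 0 of 27 were called at an adjusted p under 0.05 under CCH against control, where 0% of all units were called, and 0 of 27 under CIH, where 0.00974% were called. At an unadjusted p under 0.05 there were 3 of 27 in each comparison, against 6.32% of all units under CCH and 12.7% under CIH. Under CCH these were Kdm1a, the histone demethylase LSD1 (0.52 ± 0.19 SE, above control on 6 of 6 arrays, adjusted p 0.749), Rcor1, its partner CoREST (0.28 ± 0.13, 5 of 6 arrays), and Lmo2, the bridge between GATA and SCL/TAL1 proteins (-0.47 ± 0.21, below control on 4 of 6). Under CIH they were Nfe2l2, the regulator of the response to oxidants (0.36 ± 0.14, above control on 4 of 6 arrays, adjusted p 0.312), Rcor1 (0.29 ± 0.13, 6 of 6) and E2f2, a cell-cycle factor (-0.58 ± 0.24, below control on 5 of 6, adjusted p 0.331). E2f2 was at -0.29 without CIH 1 week replicate 1 and -0.87 without CIH 1 week replicate 2, and Lmo2 under CCH at -0.30 without control 4 weeks replicate 2. Nfe2l2 was at 0.24 without CIH 4 weeks replicate 1. With all arrays, none of these genes passed the adjusted threshold. The list's median difference was -0.08 under CCH and -0.03 under CIH, beside -0.04 and -0.007 for all units.

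Genes of the complexes in which GATA1 works were read in the same fit. Lmo2 was at -0.47 under CCH and -0.42 under CIH (± 0.21 SE). Under CCH and CIH the differences were 0.00 and -0.18 for Gata2, which precedes GATA1 in progenitors, -0.21 and -0.29 for Tal1, -0.09 and 0.02 for Ldb1, which joins TAL1, LMO2 and GATA1 in 1 complex, and -0.22 and -0.19 for Gfi1b, a repressor in red-cell and megakaryocyte precursors. The SEs of these 4 genes were 0.13 to 0.20, and the 4 were picked after their values were seen. Of 21 other GATA and KLF genes, 10 were tested and 0 had an unadjusted p under 0.05 in either comparison. These ran from -0.13 (Klf3) to 0.05 (Klf7) under CCH and from -0.26 (Klf3) to 0.16 (Gata6, a heart GATA factor) under CIH. Gata2 and Klf3 are also on the regulator list. The ranges of these 10 genes were narrower than those of the 27 tested regulators, which is a longer list.

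The mean male-to-female ratio over all arrays was also read for the regulators. At an adjusted p under 0.05 (limma, all units), 2 of 27 regulators were above 0 and 7 below, where 27.7% of all units were called, so their share was near that background. The count over all units was 2845, and it was 490 with the title letters as a replicate block and 1354 with the sign turned of CIH 4 weeks replicate 1. The lowest was E2f4 (-0.30 ± 0.05 SE, adjusted p 0.00169, below 0 on 17 of 18 arrays) and the highest Kdm1a (0.41 ± 0.08, adjusted p 0.00254, above 0 on 13 of 18). The others were Stat5a, Ldb1, Fli1, Mafg, Cbfa2t3 and Maf below 0 and Ssbp2 above. No array was labelled with exchanged dyes, so a sex difference and a dye effect cannot be told apart here.

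The red-cell lists held larger differences under CIH than the regulators. With all arrays, limma called 0 of their genes at an adjusted p under 0.05. Of the 3 globin genes tested, the embryonic Hbb-bh1 (-1.51 ± 0.36 SE, adjusted p 0.0565) and Hba-x (-1.28 ± 0.33, adjusted p 0.0686) had unadjusted p under 0.05, and Hbb-y was at -0.84 ± 0.49. Among 16 heme and iron genes 3 did so, all with lower ratios: Blvrb, a biliverdin reductase (-0.94 ± 0.16, 6 of 6 arrays below control, adjusted p 0.0521), Fech, which puts iron into heme (-1.25 ± 0.31), and Slc25a37, the mitochondrial iron importer (-0.61 ± 0.20). Of 23 membrane and metabolism genes, 8 had lower and 1 a higher ratio at that level, against 7.8% and 4.93% of all units. Mkrn1 (-1.46 ± 0.29, adjusted p 0.0521) and Bpgm, which makes 2,3-bisphosphoglycerate (-1.20 ± 0.27, adjusted p 0.0521), were below control on 6 of 6 arrays, and Bnip3l, a factor in the clearance of mitochondria (-0.99 ± 0.26), and Gpx1 (-0.97 ± 0.26) on 5 of 6. Sptb, the spectrin beta chain, had the higher ratio (0.53), but its 4 CIH arrays were split, 2 above and 2 below control. Under CCH it was also higher (0.56, above control on 5 of 6 arrays). The lists were not uniform, since the median difference was -1.28 for globins but -0.06 for heme genes and -0.12 for membrane genes. Leaving out single arrays changed how many red-cell genes were called under CIH against control, and also how many of all units were called. Without either CCH 2 weeks array, the CIH differences of Blvrb (-0.94) and Mkrn1 (-1.46) stayed the same. These arrays enter that comparison only through the estimate of the spread. Adult globin genes were not among those tested.

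**Figure D4:**
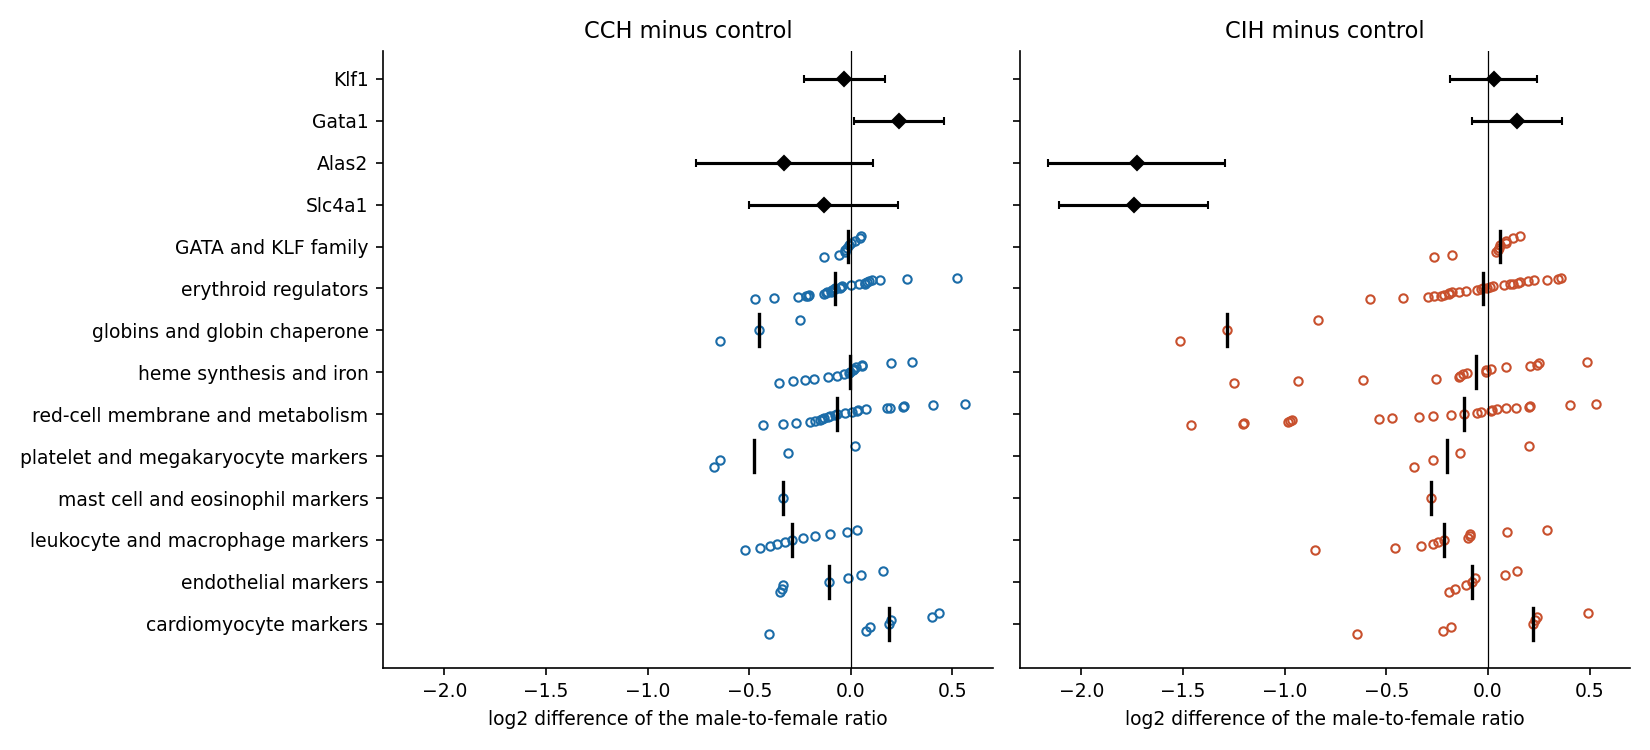
Difference from control in log2 male-to-female ratio under CCH and CIH, 1 point per gene, for the regulator, red-cell and cell type marker lists, with Klf1, Gata1, Alas2 and Slc4a1 marked. Under CIH the erythroid regulators lie between -0.58 and 0.36, whereas the listed red-cell genes reach -1.51.

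Markers of other cells that could hold GATA1 were sparse. Of 15 platelet and megakaryocyte markers 4 were tested, and under CCH the platelet chemokine genes Pf4 (-0.64 ± 0.20 SE, adjusted p 0.748) and Ppbp (-0.67 ± 0.28) had unadjusted p under 0.05 (limma). Of all units, 6.32% were at that level in either direction under CCH and 12.7% under CIH. Of 16 mast-cell and eosinophil markers only Hdc, the histamine-forming enzyme, was tested, at -0.33 ± 0.21 under CCH and -0.28 ± 0.21 under CIH. Of 22 leukocyte markers 11 were tested, with a median difference of -0.29 under CCH and -0.22 under CIH. At an unadjusted p under 0.05 (limma), 2 of 11 were lower under CCH (C1qb and Tyrobp) and 2 under CIH (C1qa and C1qb). At that level 0 were higher in either comparison. The difference was below 0 for 10 of 11 genes under CCH and for 9 under CIH, but the list was not uniform. C1qc was at 0.03 ± 0.15 under CCH and -0.10 ± 0.15 under CIH. Under CIH, H2-Eb1 was at 0.29 ± 0.21 and H2-Aa at 0.09 ± 0.34. C1qa was at -0.85 ± 0.25 under CIH (6 of 6 arrays below control, adjusted p 0.109). The median of the leukocyte list per array ran from -0.53 to 0.12 in controls, -0.81 to -0.09 under CCH and -0.62 to -0.14 under CIH. That of the erythroid regulators ran from -0.08 to 0.21, -0.18 to 0.09 and -0.21 to 0.05. The part of blood cells in the ratios of Klf1 and Gata1 was not tested. Of 20 cardiomyocyte markers 7 were tested, with medians of 0.19 under CCH and 0.22 under CIH and 0 with an unadjusted p under 0.05. Of 12 endothelial markers 7 were tested, and Emcn, a surface sialomucin of vessels, had an unadjusted p under 0.05 under CCH (-0.35 ± 0.14, adjusted p 0.749). Ratios carry no level, so the labelled tissue could not be checked by the amount of these markers.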

How the data were processed

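The authors deposited 1 table per array of log2 channel ratios, scaled to a mean linear ratio of 1, which also shows that the log base is 2. Background correction, spot filter and normalization are not given in the sources used here. Male over female was taken from Eif2s3y.

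Groups followed the words of the array titles. Each array was centred on its median, spots with 1 symbol were averaged per gene (18267 of 18511 matched RefSeq by gene identifier), and units with a value in each of 9 groups were tested (10272). The fit was limma 3.58.1 in R 4.3.3 (9 group means, eBayes, prior degrees of freedom 5.948, two-sided, Benjamini-Hochberg, threshold 0.05), tested on simulated data first. The number of arrays limits the precision. Comparisons averaged the 3 durations. The letters in the titles were not used to pair arrays in the main fit. Over 21 pairs of groups, deviations correlated from -0.55 to 0.45, with 9 pairs over 0.1. Whether the letters pair arrays is not settled by this range. 0 pairs of arrays were identical.

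The genes named were the 4 genes with all values, up to 4 genes per list and comparison with the smallest p-value, and genes most like Klf1. The regulators named beside them (Gata2, Ldb1, Tal1, Gfi1b) were picked after their values were seen, and genes called against 0 by the threshold. Members and lists were chosen with earlier results of these data known. Alternatives covered normalization, spot averaging, gaps, pairing and left-out arrays; removing spot offsets and turning the sign of 1 array were added after seeing the data.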

Additional observations from a re-analysis of the deposited data

Results flagged for a closer look

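The Klf1 ratio of -0.60 on CIH 4 weeks replicate 1 stood apart from the other 4 CIH arrays with a Klf1 value, its gap to the nearest one being over Dixon's limit. It came from spot 15651 alone, whereas 2 of the 5 values average both spots. The gap was 0.736 of the range of the 5 values, against a limit of 0.71. Among the CIH values of spot 15651 alone it was 0.446, and with spot offsets removed 0.617, both under the limit. Of 12 sets of arrays checked, 1 stood out in this way, and chance alone flags about 1 set in 20. Klf1 was chosen on these ratios, so the flag is a description.

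For Alas2 at 1 week, CCH minus CIH was 0.86 on the log2 scale, with every CCH array above and every CIH array below the mean of the controls. Without CIH 1 week replicate 1, whose source labels name 2 weeks of CCH, it was 0.56. This difference was not tested.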

How the results depend on the processing

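The CIH differences of Alas2 and Slc4a1 stayed below 0 under all alternatives run, while those of Klf1 took both signs. With the title letters as a replicate block, Klf1 was 0.07 (CCH minus control) and -0.0006 (CIH minus control), and Gata1 0.02 and 0.14. Single spots moved Gata1 under CCH from 0.24 to -0.29 (spot 14264) and -0.13 (spot 23345), and the overall Klf1 ratio from -0.10 to 0.28 (spot 12349).

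Leaving out 1 array in turn, Klf1 ran from -0.20 to 0.13 (CCH minus control), -0.13 to 0.31 (CIH minus control) and -0.23 to 0.38 (CCH minus CIH), and Gata1 from -0.14 to 0.44, 0.02 to 0.28 and -0.21 to 0.22. The highest Klf1 value of CCH minus CIH was without CIH 2 weeks replicate 1, and the lowest Gata1 value under CCH without CCH or control 4 weeks replicate 1.

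Calls under CIH were few and unsteady. Red-cell genes called went from 0 to 3 (median of spots), 4 (replicate block), 3 (units on all arrays) and 5 (no centring), and over left-out arrays 0 to 10; for CCH minus CIH 0 to 9. Regulators called went from 0 to 1 (E2f2, without CIH 1 week replicate 2). Units called under CIH (1, Phtf1) became 0 with arrays scaled or the sign turned of CIH 4 weeks replicate 1, 115 with the median of spots, 158 with the block, 109 for units on all arrays and 192 uncentred, and 1 to 305 over left-out arrays. CCH minus CIH (1) became 0 with scaling, the block, the sign turned or that array left out, and 0 to 196. CCH minus control and both hypoxias minus control each gave 0, and 0 to 1. Single durations gave 3 in all, then 6 (scaled), 5 (median), 11 (quantile), 1 (block), 8 (CIH 1 week replicate 1 regrouped by its sources) and 1 to 163. Against 0 the count was 2845, then 490 (block), 1354 (sign turned) and 1981 to 3178. The causes were not tested.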
